A study of Mus musculus with 8 samples.

Results

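The genes described here make, break down and respond to retinoic acid, the active form of vitamin A in the embryo. They are 10 of the 23478 gene symbols counted in each of 2 tables of RNA sequencing from mouse embryos at E13.5, a mid-gestation stage of mouse development. The members were chosen by name. They are Aldh1a1, Aldh1a2, Aldh1a3 and Rdh10 of synthesis, Aldh1a7, a close relative of Aldh1a1, and Dhrs3, whose enzyme works against synthesis. The others are Stra6 of vitamin A uptake, Cyp26a1 and Cyp26b1 of breakdown and the receptor gene Rarb. All 10 passed the filter on low counts in both tables. One table holds whole tracheas. Its mutant group is 1 library of genotype Wls flox/flox, ShhCre+, and its control group is 2 libraries of genotype Wls flox/flox without Cre, so the floxed alleles are shared by both. Shh-Cre acts in the airway epithelium, and the Wls protein is what cells need to secrete their Wnt signals. The other table holds cells sorted from tracheas. Its mutant group is 2 libraries of genotype Bmp4flox/flox, γSMAeGFP with a Cre allele, and its control group is 3 libraries of genotype Bmp4flox/flox, γSMAeGFP without it, so the floxed alleles and the muscle reporter are shared by both. The sorted cells were those negative for the epithelial surface protein EPCAM and for GFP, which marks muscle here, and the labels call them chondroblasts.

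Retinol, the form of vitamin A carried in blood, is taken into some cells through STRA6. RDH10 oxidises retinol to retinal, and DHRS3 turns retinal back to retinol. ALDH1A1, ALDH1A2 and ALDH1A3 oxidise retinal to retinoic acid in a step that is not reversed. The part of ALDH1A7 in that step was not tested here. Retinoic acid binds receptors of the RAR family paired with RXR on DNA, and CYP26 enzymes oxidise it so that it is cleared. Several genes of the pathway are themselves induced by retinoic acid, among them Rarb, Cyp26a1, Dhrs3 and Stra6. In the foregut, retinoic acid made by ALDH1A2 in the mesenchyme is needed for the lung and trachea to form.

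Rarb and Cyp26a1 are widely used readouts of retinoic acid signalling, so the DNA just upstream of their starts is shown first. It comes from RefSeq's mouse genes on GRCm38.p6, the patch release of the build mm10 that the files use. Retinoic acid receptors bind pairs of a 6-base core. The pair searched, known as DR5, was a direct repeat of AGGTCA, allowing also G at the first position and T at the third, with 5 bases between the cores. Both strands were searched, in windows from 250 bases before to 50 after each start. The Rarb stretch is chr14:16575477-16575576 on the minus strand and the Cyp26a1 stretch is chr19:37697708-37697807 on the plus strand, both written 5′ to 3′ with the repeat in capitals.
Rarb: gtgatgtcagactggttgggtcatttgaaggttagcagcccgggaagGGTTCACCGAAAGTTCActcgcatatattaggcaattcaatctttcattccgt
Cyp26a1: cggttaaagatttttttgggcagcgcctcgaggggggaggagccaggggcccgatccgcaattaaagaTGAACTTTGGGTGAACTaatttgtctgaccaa
The Rarb repeat lies 53 to 37 bases before the start (chr14:16575513-16575529) on the strand of the gene. The Cyp26a1 repeat lies 32 to 16 bases before the start (chr19:37697776-37697792) and reads on the strand opposite to the gene. Read along their own strands, with the cores in capitals, the repeats compare as follows.
Rarb repeat: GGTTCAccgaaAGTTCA
Cyp26a1 repeat: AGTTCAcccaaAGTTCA
Counted from 1 at the 5′ end, the substitutions from the Rarb to the Cyp26a1 repeat were G1A and G9C. RefSeq windows were at hand for 8 of the 10 members, all but Aldh1a3 and Rdh10, with 14 starts among them. The repeat was in the windows of Rarb and Cyp26a1 and of no other member, against 32 of the 32851 windows of all genes (0.0974%). The same cores spaced by 1 base were in 73 windows (0.222%) and spaced by 2 bases in 88 (0.268%), and in no window of a member. A match is a description of the letters and was not tested as a binding site.

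On mm10 the members lie on several chromosomes. Aldh1a1 (chromosome 19, 20492715 to 20643465, plus strand) and Aldh1a7 (chromosome 19, 20692953 to 20727562, minus strand) are neighbours, and Cyp26a1 lies further along the same chromosome (37697798 to 37701536, plus strand). Their transcripts were 88.9% identical over 2069 aligned positions, and 7.49% of the 50-base stretches of Aldh1a7 also occurred in Aldh1a1, so reads of these genes may be split between them. Aldh1a2 (chromosome 9, 71215789 to 71296243, plus strand) and Aldh1a3 (chromosome 7, 66390890 to 66427517, minus strand) shared no such stretch with Aldh1a1. Stra6 is at chromosome 9, 58063788 to 58153996 (plus strand), Rdh10 at chromosome 1, 16105774 to 16133734 (plus strand), and Dhrs3 at chromosome 4, 144892827 to 144928209 (plus strand). Cyp26b1 is at chromosome 6, 84571414 to 84593908 (minus strand). Rarb spans chromosome 14, 16430839 to 16819156 (minus strand), and in GENCODE 1793 of its 3108 exon bases overlap exons of Top2b on the other strand. The strand setting of the counting is not given in the sources used here, so reads of Top2b may be among the counts of Rarb.

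The Wls mutant library held 24596836 counts, and its controls held 27237573 and 31399982. The Bmp4 mutant libraries held 12964287 and 15462780, and their controls between 48876948 and 55492747. The targeted genes were lower in the mutants of both tables. CPM is the count scaled to library size. Wls had 65.8 CPM in the Wls mutant trachea, against 153 and 146 CPM in the controls. Bmp4 had 24.1 and 32.2 CPM in the Bmp4 mutant cells, against 124, 99.2 and 121 CPM in the controls. The cartilage markers in the sorted cells (Sox9, Col2a1, Acan, Matn1 and Col9a1) summed to 324 and 1016 CPM in mutants, against 3644, 2167 and 1796 CPM in controls. Fibroblast and perichondrium markers summed to 9696 and 12030 CPM in mutants, against 5170, 7268 and 4729 CPM in controls. Of the cartilage markers, Sox9, Col2a1 and Col9a1 were lower in each mutant than in each control. Acan overlapped between the groups, at 10.4 and 22.1 CPM in mutants, against 21.1, 7.92 and 1.47 CPM in controls. The cartilage matrix gene Matn1 went the other way, at 4.40 and 3.23 CPM in mutants. It was at 0 in controls 1 and 2 and at 0.161 CPM in control 3. The mutant libraries carry a background over genes without counts in the controls, described below, and its part in Matn1 was not tested. Whether the libraries within a group are separate embryos is not in the labels, so p-values measure only how these libraries vary, which can be technical.

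In whole tracheas with Wls deleted, the retinoic acid genes moved in both directions. Aldh1a1, Aldh1a7 and Cyp26a1 rose, and Cyp26b1 and Stra6 fell. Aldh1a2, Aldh1a3, Rdh10, Dhrs3 and Rarb did not pass the test. In edgeR's quasi-likelihood test with Benjamini-Hochberg adjustment over all genes, 3 of the 10 members were higher, against 1.88% of the 15815 genes tested, and 2 were lower, against 2.39% (4.27% in either direction). The mutant lay above both controls for 5 members, as for 36.9% of all genes, and below both for 2, as for 37.6%. The median log2 fold change was 0.10 over the members and -0.01 over all genes. The test rests on 1 residual degree of freedom, beside 206 prior degrees of freedom from pooling the variance over all genes. Its small p-values therefore rest mostly on that pooling. The test also takes the single mutant library to vary like the 2 controls. A rule of size with no test was therefore set beside it. It asks for a difference of at least 1 in log2 CPM, a mutant value further outside the controls than they are apart, and an average log2 CPM of 3 or more. By that rule Aldh1a1 and Aldh1a7 were higher, against 0.253% of all genes, and Cyp26b1 was lower, against 0.493%.

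Aldh1a1, which encodes a retinal-oxidising enzyme, had 57.6 CPM in the Wls mutant, against 10.7 and 12 CPM in the controls. Its log2 fold change was 2.34 ± 0.18 (SE; edgeR adjusted p = 2.18e-24), 5.06-fold. The neighbouring Aldh1a7, a close relative of Aldh1a1 in mouse, had 79.1 CPM in the mutant, against 20.9 and 25.6 CPM in the controls (log2 fold change 1.76 ± 0.18, edgeR adjusted p = 2.60e-16). For both genes the mutant lay far above controls that were close to each other. Aldh1a2, the main retinoic acid-making enzyme of embryonic mesenchyme, had 77.2 CPM in the mutant, against 61.3 and 62.9 CPM in the controls. It missed the threshold (0.31 ± 0.17, edgeR adjusted p = 0.41). Aldh1a3 was the lowest of the 4 family members, with 3.85 CPM in the mutant, against 3.66 and 5.66 CPM in the controls (-0.28 ± 0.35, edgeR adjusted p = 0.81). Its mutant value lay between the controls, and without control 2 the log2 fold change was 0.071.

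Rdh10 had 43.4 CPM in the Wls mutant, against 44.4 and 41.3 CPM in the controls, and its log2 fold change was 0.02 ± 0.18. Dhrs3, whose enzyme runs the opposite reaction, had 52.4 CPM in the mutant, against 52.8 and 45.7 CPM in the controls. In both genes the mutant lay within the range of the controls. Stra6, the retinol uptake receptor gene, had 40.3 CPM in the mutant, against 66.8 and 74.99 CPM in the controls (-0.81 ± 0.18, edgeR adjusted p = 9.87e-04). It passed the test and did not meet the rule of size.

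The genes of the breakdown enzymes went in opposite directions. Cyp26a1 had 8.85 CPM in the Wls mutant, against 1.72 and 2.83 CPM in the controls, from 216 counts against 46 and 91. Its log2 fold change was 1.95 ± 0.33 (edgeR adjusted p = 3.35e-06). Its mean level was under the minimum of the rule of size. Cyp26b1 had 10.2 CPM in the mutant, against 21.8 and 23.4 CPM in the controls (-1.15 ± 0.22, edgeR adjusted p = 4.94e-05). Rarb, the receptor gene that shares the upstream repeat with Cyp26a1, had 110 CPM in the mutant, against 106 and 97.5 CPM in the controls (0.11 ± 0.17, edgeR adjusted p = 0.85). The log2 fold change of Rarb thus lay near 0 while that of Cyp26a1 was near 2.

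**Figure D1:**
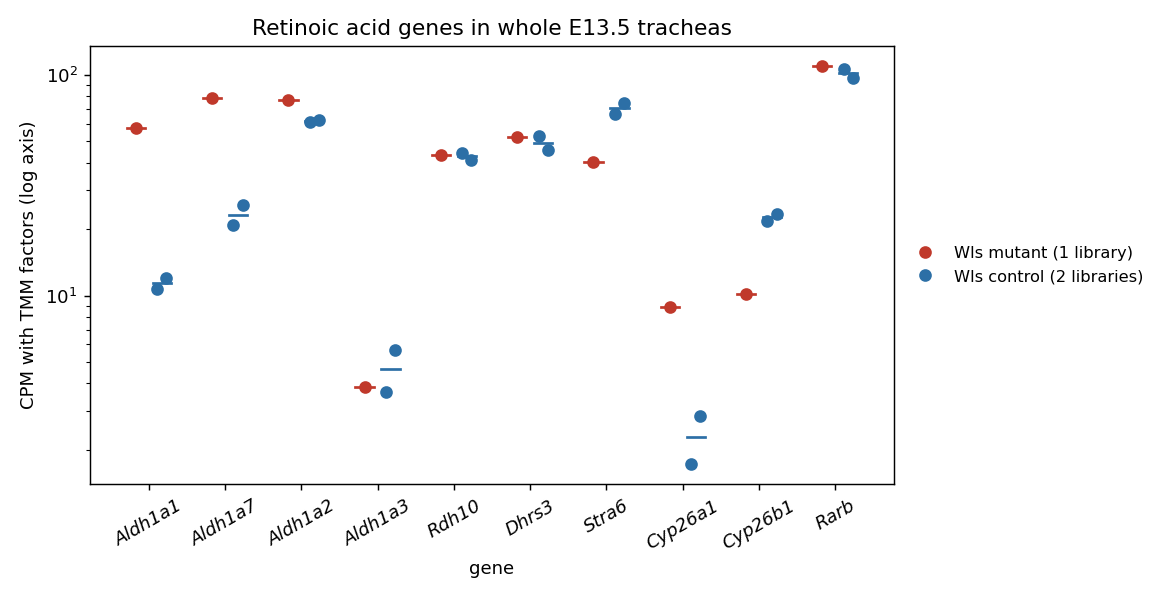
CPM with TMM factors (log axis) of the 10 retinoic acid genes in whole tracheas, 1 point per library, the Wls mutant left of its 2 controls in each gene. The mutant stands above both controls for Aldh1a1, Aldh1a7 and Cyp26a1 and, by less, for Aldh1a2 and Rarb. It stands below both for Stra6 and Cyp26b1.

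Cell type markers moved in the same libraries. Of the 7 airway epithelium markers 5 were higher, among them Sox2 (log2 fold change 0.98) and Epcam (0.97), and the 7 summed to 910 CPM in the Wls mutant, against 645 and 533 CPM in the controls. Of the 5 smooth muscle markers 2 were higher, and their sum was 2470 CPM in the mutant, against 1706 and 1496 CPM in the controls. All 4 of the cartilage markers tested were lower (Sox9 at -1.28, Acan at -2.57), and the 5 summed to 328 CPM in the mutant, against 1029 and 883 CPM in the controls. Of the 5 mesothelium markers 1 was lower, and they summed to 44.8 CPM in the mutant, against 62.0 and 50.7 CPM in the controls. The endothelium markers, of which 1 of 5 was lower, summed to 221 CPM in the mutant, against 274 and 338 CPM in the controls. Of the 5 skeletal muscle markers 3 were higher, and they summed to 106 CPM in the mutant, against 84.1 and 75.2 CPM in the controls. Of the 3 thyroid, thymus and parathyroid markers tested, Pax8 was higher (log2 fold change 4.45), at 4.19 CPM in the mutant, against 0.330 and 0.0637 CPM in the controls, and Tg was lower (-1.84). In a whole trachea, a change in the number of cells of a type and a change in RNA per cell cannot be told apart. The part of these markers in the values of the retinoic acid genes was not tested.

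**Figure D2:**
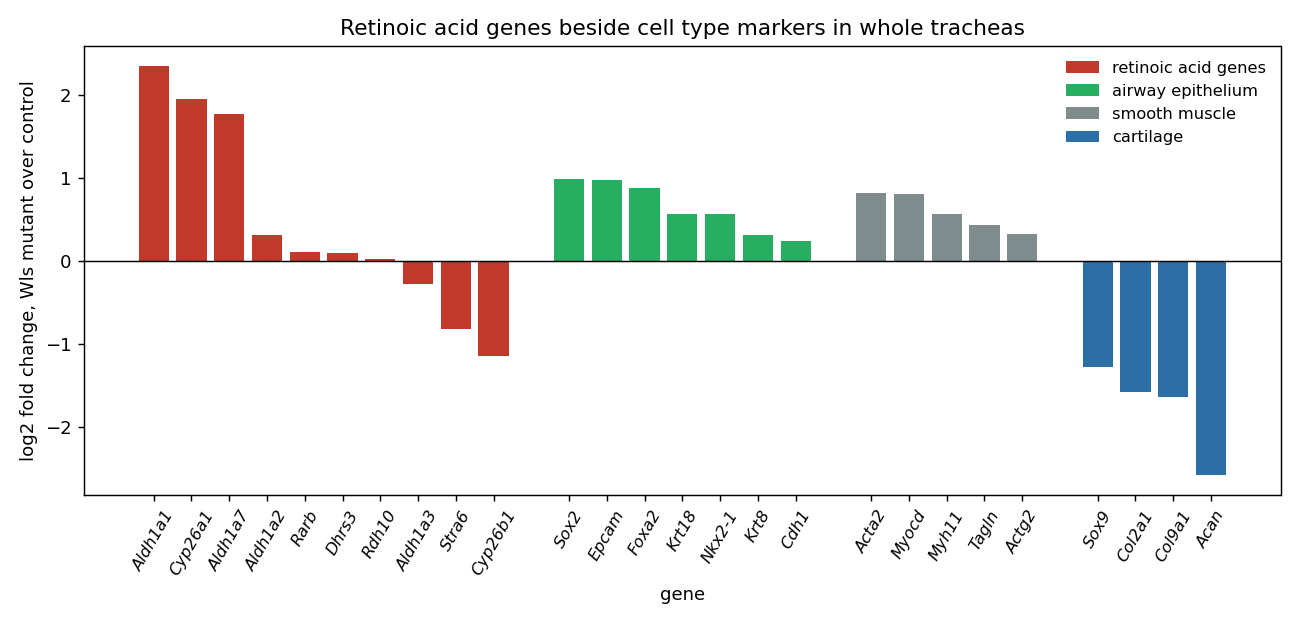
Log2 fold change, Wls mutant over controls, of the retinoic acid genes and of markers of airway epithelium, smooth muscle and cartilage in whole tracheas, 1 bar per gene. Aldh1a1 (2.34), Cyp26a1 (1.95) and Aldh1a7 (1.76) stand above the epithelial markers, the highest of which is Sox2 at 0.98, and Stra6 (-0.81) and Cyp26b1 (-1.15) fall less than the 4 cartilage markers.

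In sorted cells with Bmp4 deleted, Rarb and Stra6 fell, and their mutant counts were well above the background. Aldh1a1 and Aldh1a7 also passed the test as higher, and Cyp26b1 as lower. The mutant counts of these genes were under 3 times a background, taken as even over exons, that the controls did not carry. Aldh1a2, Aldh1a3, Rdh10, Dhrs3 and Cyp26a1 did not pass. In edgeR's test with Benjamini-Hochberg adjustment, 2 of the 10 members were higher, against 39.3% of the 21665 genes tested, and 3 were lower, against 15.6%. The median log2 fold change was 0.16 over the members and 0.53 over all genes. In either direction 5 of the 10 members were called, close to the 54.9% of all genes. Both mutants lay above every control for 3 members, as for 48.2% of all genes, and below every control for 3, as for 25.6%.

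The background has to be read before the members. The 4338 genes with no count in any control carried 21.2 counts per kilobase of exon in mutant 1 and 19.6 in mutant 2, and none in the controls by the way they were chosen. Applied to all exons, that rate makes up 11.3% and 8.76% of the mutants' counts. Few genes were without a count in the mutants, 919 and 955, against 6080, 5661 and 5573 in control libraries. Genes at 3 or more times the background, 9754 of those tested, had a median log2 fold change of -0.38. This limit was set on the mean CPM over all sorted-cell libraries. A gene could thus meet it through its controls, which can favour lower calls. Of these genes 3285 were called lower and 436 higher. Of the 6 members above that limit 2 were called lower, Rarb and Stra6. That is close to the share of such genes, which the limit itself may have raised. With scaling factors taken from those genes the calls over all genes split into 9844 higher and 812 lower, against 8507 higher and 3381 lower with the usual factors, and the median moved to 0.91. The 11888 genes called in all became 3595 when mutant 1 was left out and 7829 when mutant 2 was.

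Rarb had 74.9 and 105 CPM in the Bmp4 mutants, against 251, 255 and 199 CPM in the controls. Its log2 fold change was -1.38 ± 0.21 (SE; edgeR adjusted p = 0.0033). Stra6 had 60.3 and 62.7 CPM in the mutants, against 125, 151 and 170 CPM in the controls (-1.27 ± 0.18, edgeR adjusted p = 0.0033). For both genes each mutant lay below each control. With scaling from genes above the background, Rarb was at -1.01 (edgeR adjusted p = 0.0032) and Stra6 at -0.89 (edgeR adjusted p = 0.0043). After an even background was subtracted from the counts, they were at -0.92 ± 0.19 (edgeR adjusted p = 0.0696) and -0.85 ± 0.17 (edgeR adjusted p = 0.0701), short of the threshold. Top2b, whose exons overlap those of Rarb, had 25.6 and 41.3 CPM in the mutants, against 67.8, 60.8 and 71.8 CPM in the controls (-0.997 ± 0.23, edgeR adjusted p = 0.0086), and its part in the counts of Rarb was not tested. In the Wls mutant trachea Top2b had 337 CPM, against 323 and 329 CPM in the controls.

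Aldh1a1 had 5.41 and 4.76 CPM in the Bmp4 mutants, against 0.449, 0.684 and 0.249 CPM in the controls (3.45 ± 0.66, edgeR adjusted p = 0.0045). Its 74 and 84 counts in the mutants compare with 66.4 and 61.4 expected from the background over its exons. Aldh1a7 had 5.33 and 4.76 CPM in the mutants, against 0.449, 0.485 and 0.332 CPM in the controls (3.57 ± 0.59, edgeR adjusted p = 0.0033). Its 73 and 84 counts were 1.67 and 2.08 times the 43.7 and 40.4 expected. Neither gene reached 3 times the background, so the size of their differences cannot be told apart from it. Without mutant 1, Aldh1a1 was at 3.35 with an edgeR adjusted p of 0.0553, and 1 member in place of 2 was called higher.

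Cyp26b1 had 8.25 and 5.38 CPM in the Bmp4 mutants, against 16.6, 13.1 and 13.8 CPM in the controls (-1.09 ± 0.34, edgeR adjusted p = 0.029). Its 113 and 95 counts in the mutants compare with 90.5 and 83.7 expected from the background, which leaves 23 and 11 counts. Without TMM factors that is 1.77 and 0.711 CPM, against 12.2 to 15.3 CPM in the controls, a difference that was not tested. The call was lost without mutant 2 (edgeR adjusted p = 0.0983), without control 1 (0.0816), without control 3 (0.0631) and with scaling from genes above the background (0.157). Cyp26a1, the other breakdown gene, had 13.9 and 49.5 CPM in the mutants, against 23.8, 6.75 and 6.21 CPM in the controls (1.37 ± 0.71, edgeR adjusted p = 0.14). The groups overlapped because control 1 stood above mutant 1, and without control 1 the log2 fold change was 2.29 with an edgeR adjusted p of 0.0106. Without mutant 2, the library with the highest value, the log2 fold change was 0.18.

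**Figure D3:**
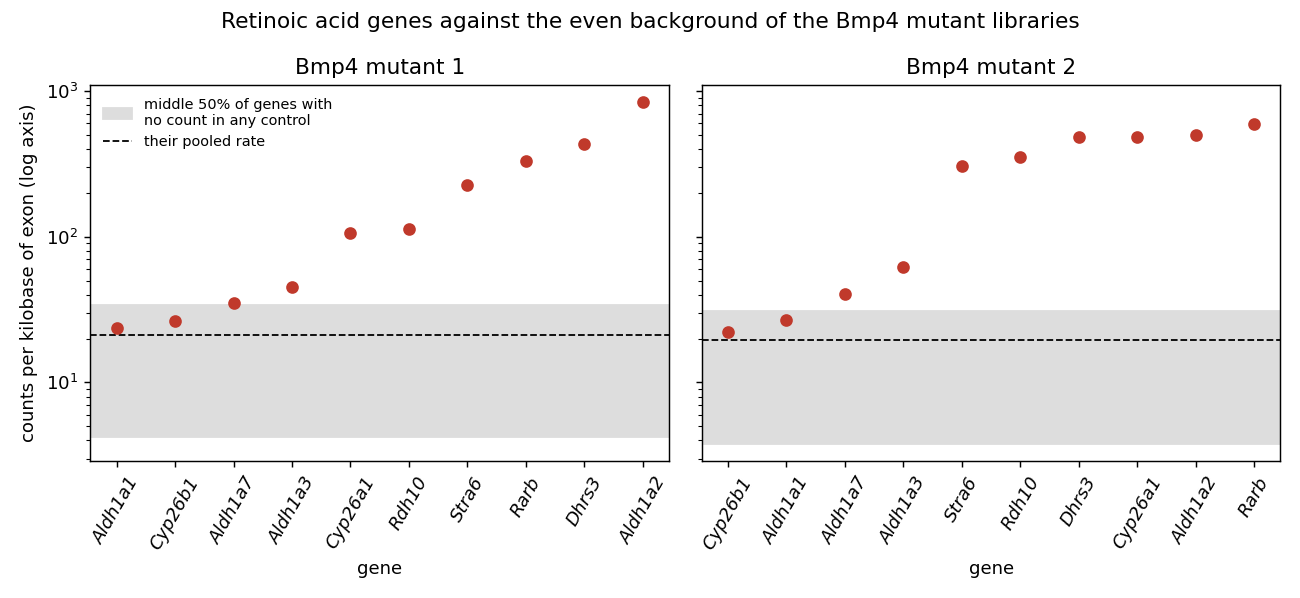
Counts per kilobase of exon (log axis) of the 10 retinoic acid genes in each Bmp4 mutant library, with the middle 50% (grey) and the pooled rate (dashed line, 21.2 and 19.6 counts per kilobase) of genes that had no count in any control. Aldh1a1, Cyp26b1, Aldh1a7 and Aldh1a3 lie in or just above the grey band, and the other 6 genes lie above it.

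Of the remaining members, Aldh1a2 had 139 and 64.6 CPM in the Bmp4 mutants, against 52.5, 136 and 131 CPM in the controls (-0.07 ± 0.46, edgeR adjusted p = 0.91). Mutant 1 stood with controls 2 and 3, and mutant 2 stood with control 1. Mesothelium markers, which mark the outer lining of organs, summed to 228 and 79.9 CPM in the mutants, against 12.9, 81.1 and 47.9 CPM in the controls, so the libraries with the highest and the lowest Aldh1a2 also had the highest and the lowest mesothelium sum. The order did not hold between them, since mutant 2 and control 2 had like sums and unlike Aldh1a2. Msln, 1 of the 5 mesothelium markers, was at 0 in control 1. The part of mesothelium in Aldh1a2 was not tested. Rdh10 had 29.5 and 71.5 CPM in the mutants, against 43.9, 42.1 and 30.2 CPM in the controls, and the mutants lay on either side of the controls. Dhrs3 had 76.5 and 66.4 CPM in the mutants, against 67.3, 109 and 120 CPM in the controls (-0.47 ± 0.25, edgeR adjusted p = 0.15). Control 1 was alone at the level of the mutants, and without it Dhrs3 was at -0.68 (edgeR adjusted p = 0.0204). Without control 3 Dhrs3 was at -0.30. Aldh1a3 had 11.4 and 12.1 CPM in the mutants, against 5.10, 4.76 and 9.99 CPM in the controls (0.83 ± 0.43, edgeR adjusted p = 0.14). Without control 3 it was at 1.26 (edgeR adjusted p = 0.0491), and without control 2 it was at 0.56. Its 156 and 214 counts in the mutants compare with 72.8 and 67.4 expected from the background.

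**Figure D4:**
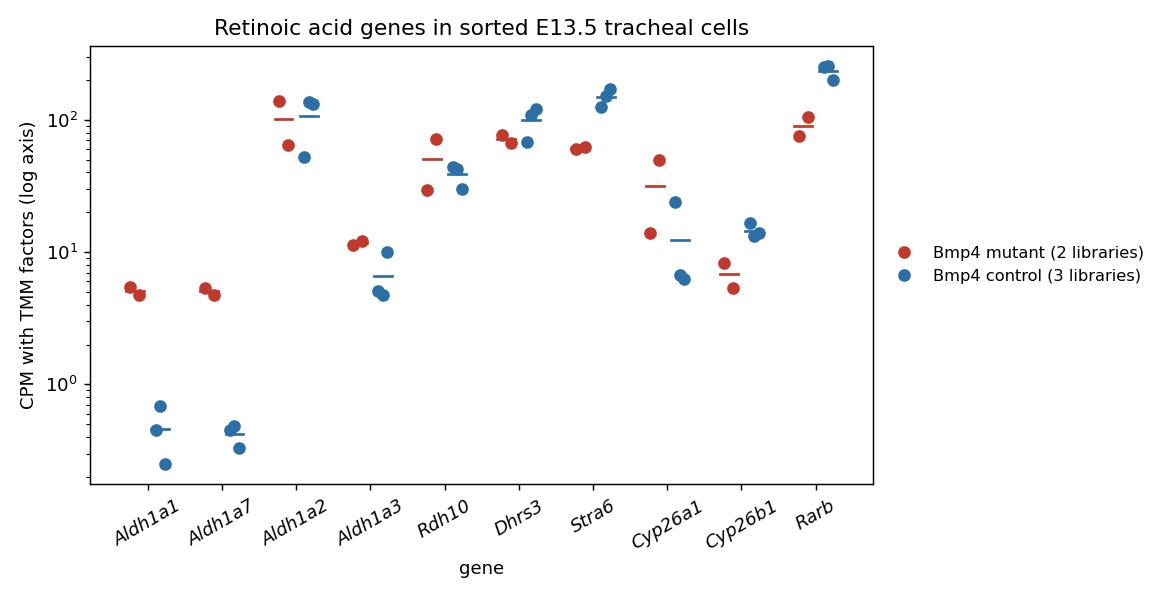
CPM with TMM factors (log axis) of the 10 retinoic acid genes in sorted cells, 1 point per library, the 2 Bmp4 mutants left of their 3 controls in each gene. Rarb, Stra6 and Cyp26b1 are lower in both mutants than in every control, and Aldh1a1, Aldh1a7 and Aldh1a3 are higher. Aldh1a2, Cyp26a1, Rdh10 and Dhrs3 overlap between the groups.

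After subtraction 6 members were high enough to be tested, and 0 passed in edgeR, against 0.851% of 9753 genes higher and 0.359% lower (1.21% in either direction). Unadjusted, 2 of the 6 were under 0.05 in edgeR, Rarb and Stra6, as were 2231 of the 9753 genes. The other 4 had log2 fold changes of 1.76 ± 0.77 for Cyp26a1, 0.75 ± 0.39 for Rdh10, 0.46 ± 0.52 for Aldh1a2 and 0.01 ± 0.28 for Dhrs3. Markers of other cells were also counted in the sorted libraries. Smooth muscle markers, of which 5 of 5 were higher, summed to 1368 and 214 CPM in the mutants, against 74.9, 76.8 and 109 CPM in the controls. Airway epithelium markers, of which 3 of 7 were higher, summed to 76.9 and 57.9 CPM in the mutants, against 36.3, 33.5 and 23.7 CPM in the controls. Endothelium markers, with 2 of 5 higher, summed to 179 and 159 CPM in the mutants, against 21.4, 78.0 and 56.0 CPM in the controls. The call shares of both lists are close to the 39.3% of all genes called higher. Skeletal muscle markers, with 1 of 5 higher, summed to 277 and 193 CPM in the mutants, against 11.4, 20.0 and 132 CPM in the controls. Neuron and neural crest markers, with 2 of 5 higher and 1 lower, summed to 430 and 538 CPM in the mutants, against 224, 348 and 246 CPM in the controls. Thyroid, thymus and parathyroid markers, with 4 of 5 higher, summed to 63.0 and 37.6 CPM in the mutants, against 4.58, 7.96 and 16.03 CPM in the controls. These sums include the even background of the mutants. Globin genes took 12.3% and 0.111% of the mutants' counts, against 0.000476%, 0.913% and 0.960% in the controls, and with them left out the same numbers of members were called, 2 higher and 3 lower. The part of these other cells in the members' values was not tested.

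Levels of different genes can be set beside each other only per length of exon, in CPM per kilobase. In the Wls mutant trachea the order was led by Aldh1a7 (38.3), Rarb (35.4) and Aldh1a2 (34.1). In the control tracheas it was led by Rarb (34.2 and 31.4), Aldh1a2 (27.1 and 27.8) and Dhrs3 (21.8 and 18.9), and Aldh1a7 stood at 10.1 and 12.4. Dhrs3 and Stra6 (18.3 and 20.6) overlapped in the controls, as did Rdh10 (12.4 and 11.5) and Aldh1a7. Cyp26a1 and Aldh1a3 were the lowest members in the control tracheas, at 0.96 and 1.58 for Cyp26a1 and 1.06 and 1.64 for Aldh1a3, and these overlapped.

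In the sorted cells the per-length order was led by Rarb in the controls (80.8, 82.2 and 64.1 CPM per kilobase) and was not led by a single gene in the mutants. There Aldh1a2 stood at 61.5 and 28.5, Dhrs3 at 31.6 and 27.4, and Rarb at 24.1 and 33.8, and these 3 overlapped. In controls Aldh1a2 (23.2, 60.1 and 58.0), Dhrs3 (27.8, 45.1 and 49.6) and Stra6 (34.3, 41.3 and 46.8) overlapped. Aldh1a1 and Aldh1a7 were the lowest members in the control cells, at most 0.22 and 0.23 CPM per kilobase. In control tracheas, which keep epithelium and muscle, they were at 3.42 and 3.82 for Aldh1a1 and at 10.1 and 12.4 for Aldh1a7. The tables come from different kits and were scaled apart, so these levels stand side by side with no test.

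**Figure D5:**
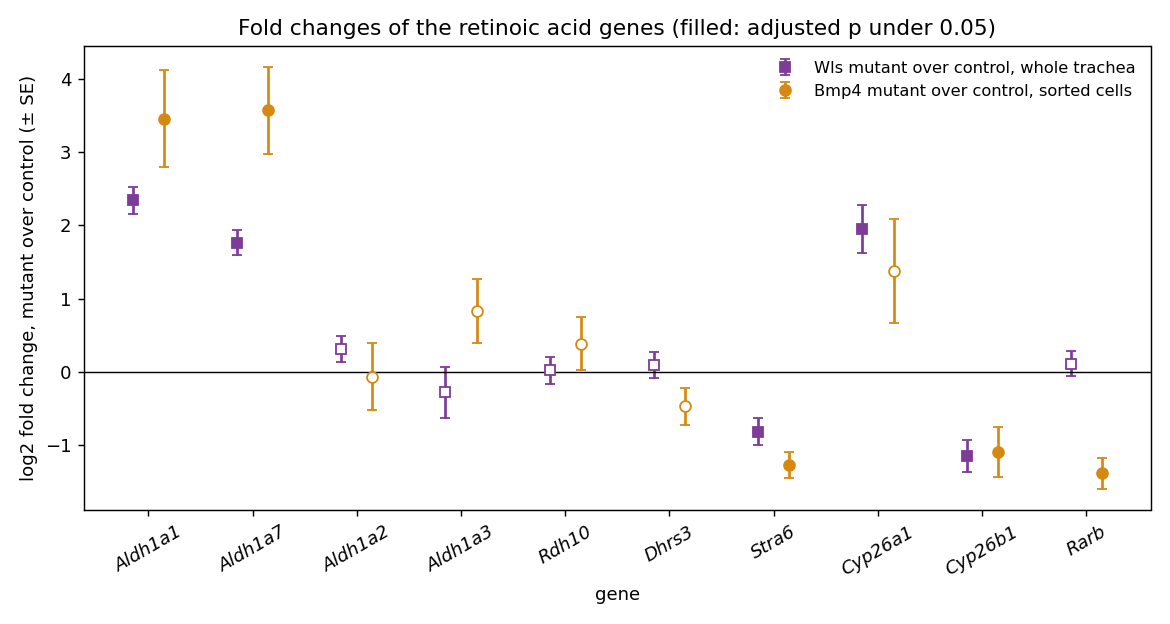
Log2 fold change, mutant over control, with its SE for the 10 retinoic acid genes in whole tracheas (Wls, squares) and sorted cells (Bmp4, circles), filled where the edgeR adjusted p was under 0.05. Stra6 is called lower in both tables. Rarb is called in the sorted cells at -1.38 and lies at 0.11 in the trachea. The circles of Aldh1a1 and Aldh1a7 (higher) and Cyp26b1 (lower) stand on mutant counts under 3 times the background.

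The tables share no library. Stra6 was called lower in both, at -0.81 ± 0.18 in the Wls mutant trachea and -1.27 ± 0.18 in the Bmp4 mutant cells. Rarb was at 0.11 ± 0.17 in the trachea and -1.38 ± 0.21 in the sorted cells. The difference between the tables was not tested, because kit and cell preparation differ along with the genotype. Bmp4 itself was lower in the Wls mutant trachea, at 30.9 CPM against 50.7 and 49.1 CPM in the controls (-0.69 ± 0.19, edgeR adjusted p = 0.011).

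Beyond the members, 44 other genes of the pathway were listed, for carriage and storage, retinol dehydrogenases, carriers within the cell, receptors, coregulators and responding genes. In the trachea 35 of them were tested, and 1 was higher and 1 lower, against 1.88% and 2.39% of all genes. Rbp4, the retinol carrier of blood, had 9.34 CPM in the Wls mutant, against 4.67 and 4.17 CPM in the controls (1.08 ± 0.30, edgeR adjusted p = 0.012), and was not called by DESeq2. Rarg, the receptor gene known for its expression in embryonic cartilage, had 103 CPM in the mutant, against 167 and 155 CPM in the controls (-0.65 ± 0.18, edgeR adjusted p = 0.016). The median log2 fold change of the 35 was -0.12. Among the other receptor genes, Rara had 84.6 CPM in the mutant, against 90.3 and 88.5 CPM, Rxra had 128 CPM, against 154 and 136 CPM, and Rxrb had 77.3 CPM, against 82.9 and 77.4 CPM. None of these differences passed the test, nor did that of Rxrg, at 5.86 CPM in the mutant, against 4.93 and 4.35 CPM in the controls. The carriers Crabp1 (135 CPM, against 152 and 132) and Crabp2 (49.6 CPM, against 41.6 and 43.8) did not pass either. The CRABP proteins hold retinoic acid within the cell.

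In the sorted cells all 44 were tested, with 15 called higher and 10 lower, against 39.3% and 15.6% of all genes, and a median log2 fold change of 0.16. Of the 15 higher genes 14 did not reach 3 times the background in mean CPM over all libraries. All 10 lower genes did, and a gene can meet that limit through its controls. Without mutant 1 the counts were 3 higher and 5 lower, without mutant 2 there were 8 higher, and with scaling from genes above the background 6 were lower. The 12 with the largest fitted changes were Adh4, Rdh1, Rbp7, Dhrs9, Stra8, Hoxb1, Lrat, Ttr, Aldh8a1, Bco1 (under its older symbol Bcmo1), Adh7 and Bco2. Each had at most 1.21 CPM (without TMM factors) in a control, and none reached 3 times the background in both mutants, though Rbp7 did in mutant 2 (79.2 counts per kilobase) and Bco1 in mutant 1 (69.2). Their fold changes rest on controls near 0 and are not given. Rarres2, the only higher gene to meet the limit on mean CPM, was at 1.22. Ncoa1, also called higher (0.87, edgeR adjusted p = 0.012), did not meet it. Its mutants alone were above 3 times the background, at 67.9 and 67.8 counts per kilobase. Rarres2 and Ncoa1 were named after their values were seen.

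Of the 5 further receptor genes 3 were lower in the Bmp4 mutants and 0 higher. All 5 met the limit of 3 times the background, as did 9754 genes, of which 3285 were lower and 436 higher. That limit can be met through the controls, so it can itself favour lower calls. Rarg had 29.7 and 50.6 CPM in the mutants, against 130, 93.9 and 84.2 CPM in the controls (-1.35 ± 0.28, edgeR adjusted p = 0.0065). Rxra had 31.5 and 35.0 CPM in the mutants, against 63.5, 61.4 and 65.0 CPM in the controls (-0.93 ± 0.14, edgeR adjusted p = 0.0033). RXR proteins are the partners that RARs need to bind DNA. Rxrb had 35.3 and 30.5 CPM in the mutants, against 86.7, 53.8 and 46.0 CPM in the controls (-0.92 ± 0.28, edgeR adjusted p = 0.029). Rara was at 66.8 and 57.6 CPM in the mutants, against 79.9, 77.9 and 81.7 CPM in the controls, and missed the threshold (edgeR adjusted p = 0.060). Rxrg overlapped between the groups, at 10.4 and 12.6 CPM in mutants, against 6.37, 9.99 and 27.2 CPM in controls.

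The carrier Crabp1 had 116 and 228 CPM in the Bmp4 mutants, against 526, 277 and 277 CPM in the controls, and missed the threshold (edgeR adjusted p = 0.052). Crabp2 had 77.3 and 83.8 CPM in the mutants, against 105, 104 and 158 CPM in the controls (edgeR adjusted p = 0.050, just above the threshold). Both lay lower in every mutant library than in every control library, as did 25.6% of all genes tested. After subtraction of the background 26 of the 44 were tested, 0 were higher and 1 was lower, against 0.851% and 0.359% of all genes in that test. Of the 26, 9 had an unadjusted p under 0.05 in edgeR, as had 2231 of all 9753 genes in that test. Crabp1 was then at -0.55 (0.43), Crabp2 at -0.084 (0.86), Rarg at -1.003 (0.12), Rxra at -0.72 (0.066) and Rxrb at -0.54 (0.33), each with edgeR's adjusted p in brackets.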

How the data were processed

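The authors deposited raw read counts per gene, 1 table for whole tracheas and 1 for sorted cells. Tools named in the submitters' processing notes are Bowtie2, Cufflinks and DESeq, with Trim Galore for the sorted cells, and the build is mm10. Of the counting program, strand setting and annotation, each is not given in the sources used here. RNA was extracted in Trizol, per the labels' protocols, amplified with SMART-Seq v4 (sorted cells) or Ovation v2 (tracheas) and made into Nextera XT libraries. The tables were tested apart.

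Differences in counts were tested with edgeR 4.0.16 in R 4.3.3 (TMM scaling, its expression filter by group, quasi-likelihood F test). The threshold was a Benjamini-Hochberg adjusted p of 0.05 over all genes tested. CPM of single genes carry TMM factors, and sums over marker lists do not. Sorted cells had 3 residual degrees of freedom and tracheas 1, with 4.23 and 206 prior degrees of freedom from pooling over genes. log2 CPM used a prior count of 2. DESeq2 1.42.0 and limma 3.58.1 (voom) were alternatives, as were other scalings, filters and libraries left out. Exon lengths and loci came from GENCODE M21, in which 23081 of 23478 symbols matched 1 gene. An even background, 1 pooled rate per kilobase of exon in each sorted-cell library, was estimated from genes with no count in any control. In one alternative it was subtracted, and genes at 3 or more times the background were tested. For that limit the mean CPM over all sorted-cell libraries, controls included, was held against the mean background of the mutants. The scripts were tested on simulated data. Replicates differed by 23.4 to 184 times counting variance (chi-square per degree of freedom), so none was a duplicate. Reads carry no molecular identifiers.

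The members, pathway genes and marker lists were chosen with earlier results of these data known. All members were named. Other pathway genes were named if called in a comparison, at most 12 in each by size of the log2 fold change, plus receptors and carriers, and some named items are not reported here. Other data that the series combines with these were not analysed here.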

Additional observations from a re-analysis of the deposited data

How the results depend on the processing

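In the Bmp4 comparison 159 recomputed values kept their side of the threshold or, for counts, stayed close to the reported count, 17 counts moved, 12 calls were lost and 3 were gained. In the Wls comparison 95 values were kept and 4 moved. No called member changed direction. Among members that were not called, signs turned for Aldh1a2 and Dhrs3 after subtraction (0.46 and 0.01). The sign of Aldh1a2 also turned with scaling from genes above the background (0.33) and with the replicate block (0.17). It turned as well without mutant 2 (0.39), without control 2 (0.044) and without control 3 (0.12). Rdh10 turned without mutant 2 (-0.39). In the Wls comparison without control 2, signs turned for Rdh10 (-0.034), Dhrs3 (-0.011) and Aldh1a3 (0.071). Subtracting the even background left 118 genes called, 0 members higher, 0 lower, 0 other pathway genes higher and 1 lower, with Rarb at -0.92 and Stra6 at -0.85. Scaling from genes above the background left 6 pathway genes lower and Cyp26b1 at -0.70. With libraries left out in turn, 3595 (without mutant 1) to 10478 genes were called. Members ranged from 1 to 3 higher and 2 to 3 lower, and pathway genes from 3 to 15 higher and 5 to 9 lower. The log2 fold changes then ranged from 3.16 to 3.77 for Aldh1a1, -0.74 to 0.39 (without mutant 2) for Aldh1a2, -0.39 (without mutant 2) to 0.87 for Rdh10, 0.56 to 1.26 for Aldh1a3, 0.18 to 2.29 for Cyp26a1, -1.45 to -0.81 for Cyp26b1 and -0.68 to -0.30 for Dhrs3. In the Wls comparison DESeq2 called 259 genes and 0 pathway genes higher, and without each control in turn Aldh1a3 ranged from -0.53 to 0.071 (without control 2) and Cyp26a1 from 1.63 to 2.31. The cause was not tested. Leaving out globin genes, chosen after seeing the data, changed no member's call.

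Replicates 1 and 2 of the Bmp4 groups share only a number, and deviations of same-numbered libraries correlated at -0.17 and -0.11. With a replicate block 4 genes were called, 0 members higher, 0 lower, and 0 pathway genes higher or lower, with Aldh1a1 at 3.18, Aldh1a7 at 3.42, Cyp26b1 at -1.15, Rarb at -1.51 and Stra6 at -1.16. For Wls, no paired analysis was possible because the mutant group has 1 library. Depth limits Aldh1a1 and Aldh1a7 in the control cells, at 12 to 31 and 16 to 23 counts.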

Other observations

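Over the 8 libraries, with log2 CPM centred within each table, the 3 genes whose values ran most like those of Rarb were Ppp2r5c (Pearson r = 0.999), Terf2ip (0.995) and Ufd1l (0.994), among 10154 genes. The libraries of a table share kit and depth, and the Bmp4 mutants share their background, so this is a description of these libraries only.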
